A study of Mus musculus with 10 samples.

Results

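The proteasome genes described here are the 44 genes in the files whose symbols begin with Psma, Psmb, Psmc, Psmd or Psme followed by a digit, among 23420 genes in all. The rule that picks them uses the symbol alone and no measured value, although the family itself was taken up with earlier results of these data known. The interferon-inducible catalytic subunits Psmb8, Psmb9 and Psmb10 and the activator subunits Psme1 and Psme2 were set apart as 5 genes, which left 39 others. One of the 44, Psmc3ip, shares only the symbol: its product is a meiotic recombination factor and no proteasome subunit. Of the 44 genes, 43 passed the filter on low counts, and Psmb11, a subunit of thymic epithelium, did not.

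RNA was sequenced from mouse bone marrow cells of strain C57BL/6, sorted as pro-B cells (B220+ IgM- CD43+) or as small pre-B cells (B220+ IgM- CD43-, small by light scatter). Control mice were compared with Mta2 KO mice, whose deletion is labelled Mta2_VavKO. Vav-driven Cre acts throughout the blood system, so any blood cell in a sort can carry the deletion. Mta2 is a subunit of the NuRD complex, a chromatin remodeller and histone deacetylase. The pro-B groups held 2 libraries of each genotype and the small pre-B groups 3 of each, with total counts from 17805507 to 52127004. The labels state no age, no sex and no genotype of the controls beyond the word control. Nothing states that the libraries of a group came from separate animals, so a p-value here reflects only how far libraries of a group spread, which may be technical.

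The 20S proteasome is a barrel of outer alpha rings and inner beta rings, and its proteolytic sites lie on the beta subunits Psmb5, Psmb6 and Psmb7. In immune cells and under interferon, Psmb8, Psmb9 and Psmb10 replace Psmb5, Psmb6 and Psmb7 in newly assembled particles, which alters the peptides made for MHC class I. The barrel is opened by caps: the 19S particle, with its ATPase ring (Psmc), base and lid (Psmd), recognises ubiquitin and unfolds proteins, the PA28 ring of Psme1 and Psme2 or of Psme3 works without ATP, and Psme4 encodes the single-chain activator PA200. In blood cells immunoproteasome genes are expressed even without infection.

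Of the immunoproteasome genes, Psmb8 and Psmb9 are neighbours, and Psmb10 lies alone on chromosome 8 (105935728 to 105938392, minus strand). In mm10, Psmb9 (chromosome 17, 34182099 to 34187330, minus strand) and the peptide transporter gene Tap1 (34187556 to 34197225, plus strand) face away from each other across 225 bases, and Psmb8 follows at 34198195 to 34201454 on the plus strand, all within the MHC region. Psme1 (chromosome 14, 55578494 to 55581527, plus strand) and Psme2 (55587440 to 55591101, minus strand) lie on the same chromosome as Psmb5 (54614120 to 54617995, minus strand). Psme4 spans chromosome 11, 30771775 to 30880361, with 47 exon intervals. The 250 bases before the start sites of 5 genes are shown, because these genes carry the results: Psmb8 and Psme1 fell between the stages, Psmb10 did not pass the test there, Psmb5 and Psmb8 rose in the small pre-B Mta2 KO cells, and Psme4 rose between the stages. The sequences are RefSeq's on GRCm38.p6 (mm10 coordinates), on the gene's own strand, with capitals marking a motif match.
Psmb8, chr17:34197945-34198194, plus strand: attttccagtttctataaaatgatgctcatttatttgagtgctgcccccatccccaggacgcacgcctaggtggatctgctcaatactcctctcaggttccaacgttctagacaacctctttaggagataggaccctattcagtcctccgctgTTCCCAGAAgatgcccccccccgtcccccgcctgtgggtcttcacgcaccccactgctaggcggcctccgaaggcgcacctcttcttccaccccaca
Psmb10, chr8:105938393-105938642, minus strand: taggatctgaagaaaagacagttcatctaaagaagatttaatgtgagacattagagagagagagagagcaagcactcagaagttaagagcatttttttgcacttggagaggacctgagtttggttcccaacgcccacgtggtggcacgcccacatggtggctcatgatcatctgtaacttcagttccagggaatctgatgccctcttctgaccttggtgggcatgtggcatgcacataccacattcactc
Psme1, chr14:55578244-55578493, plus strand: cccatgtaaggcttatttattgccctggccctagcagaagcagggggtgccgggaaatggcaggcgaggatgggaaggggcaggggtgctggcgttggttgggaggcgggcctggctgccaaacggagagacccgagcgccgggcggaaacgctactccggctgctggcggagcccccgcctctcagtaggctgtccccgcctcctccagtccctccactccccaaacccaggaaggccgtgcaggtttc
Psmb5, chr14:54617996-54618245, minus strand: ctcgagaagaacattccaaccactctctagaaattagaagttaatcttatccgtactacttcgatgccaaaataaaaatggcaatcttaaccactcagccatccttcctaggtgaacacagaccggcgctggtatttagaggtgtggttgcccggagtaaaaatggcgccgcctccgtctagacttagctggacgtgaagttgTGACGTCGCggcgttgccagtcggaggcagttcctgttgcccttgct
Psme4, chr11:30771525-30771774, plus strand: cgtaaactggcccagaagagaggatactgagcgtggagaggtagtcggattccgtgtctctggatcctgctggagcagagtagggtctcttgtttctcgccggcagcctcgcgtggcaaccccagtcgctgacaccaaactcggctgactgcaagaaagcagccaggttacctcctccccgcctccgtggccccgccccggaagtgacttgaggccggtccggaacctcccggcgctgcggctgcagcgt

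The capitals in Psmb8 mark the letters TTCNNNGAA, the form of a STAT-binding GAS element, starting 97 bases before the start site. Those in Psmb5 mark TGACNNNGC, the form of the element bound by NFE2L1, the factor that drives proteasome genes when proteasome activity is short, starting 47 bases before the start site. Psme4 had a TGACNNNGC match on the other strand that begins 7 bases before its start site and runs past the sequence shown. RefSeq windows of 300 bases, from 250 before to 50 after the start, matched 37 of the 44 genes in 40 windows, and 4 motifs were searched on both strands. TGACNNNGC occurred in 15% of the proteasome gene windows and in 12.4% of all 32851 windows. GAAANNGAA, the core of an interferon-response element, occurred in 15% against 8.56%, TTCNNNGAA in 5% against 8.3%, and CCAAT in 37.5% against 37.4%. Of the GAAANNGAA matches, 5 windows belonged to genes not set apart. Of the 6 set-apart windows only 1, that of Psme1, held it. This match lay on the other strand, 10 bases past the start site and outside the sequence shown. The shares for TGACNNNGC and CCAAT were thus near those of all promoters, and a match is a description of the letters only.

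Mta2 itself, counted over all its exons, had 246 to 438 CPM (counts relative to the scaled total of the library) in the controls and 163 to 199 CPM in the Mta2 KO libraries. The 246 CPM was that of small pre-B control 2, and the next lowest control, pro-B control 2, had 375 CPM. Where the remaining reads lie relative to the deleted part was not tested. Small pre-B control 3 stood apart, with 0.953% of its counts in histone genes and 1.4% in Malat1, against at most 0.0399% and 0.29% in any other library. It was the lowest of the 3 small pre-B controls for 21 of the 43 tested proteasome genes, and small pre-B Mta2 KO 3 was the highest of its group for 34. Small pre-B Mta2 KO 1 and 2 held more than 100 CPM of Xist RNA (2520 and 2940 CPM) and the other libraries did not. Their Y-linked genes summed to 8.13 and 0.079 CPM, against 224 to 674 CPM in the other libraries. Mta2 KO 1 and 2 thus read as female and the others as male, although the labels state no sex. Sex therefore went partly with genotype in small pre-B cells and with stage in Mta2 KO cells, and its part was not tested. Markers of cell types differed between the sorts as well. The 8 B lineage markers summed to 1253 to 1979 CPM in the pro-B libraries and to 8565 to 12840 CPM in the small pre-B libraries. All 9 myeloid and granulocyte markers found (Ly6g was missing) were detected in the pro-B libraries, at a sum of 6299 to 15060 CPM, against 103.5 to 376.1 CPM in the small pre-B libraries. The 7 plasmacytoid dendritic markers, some of which B cells also express, summed to 5701 to 6850 CPM against 536.5 to 708.9 CPM. In bulk RNA, fewer cells of a type and less RNA per cell cannot be told apart.

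Levels differed widely within the family, and of the set-apart genes Psme1 and Psmb8 were its highest members in pro-B cells, while Psmb9 ranked 6, Psme2 ranked 8 and Psmb10 ranked 23 of 44 in pro-B controls. On the RPKM scale (CPM divided by the exon length in kilobases), the median of the 7 alpha ring genes was 94.2 in pro-B controls and 80.2 in small pre-B controls. The 4 structural beta genes had medians of 110 and 94.0 RPKM, the 6 ATPase genes 71.9 and 77.9 RPKM and the 8 lid genes 54.8 and 50.7 RPKM. The assembly chaperones of the 19S base (Psmd5, Psmd9 and Psmd10) were lower, with medians of 13.9 and 16.5 RPKM. The subunits of 1 particle are needed in fixed numbers, while their RNA levels within the alpha ring ran from 32.6 RPKM (Psma5) to 119 RPKM (Psma7) in pro-B controls.

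Psme1 was the highest of the 44 genes in pro-B controls, at 233 ± 18.9 RPKM (SD, n = 2), and Psmb8 was the next at 182 ± 4.55 RPKM (SD, n = 2). In small pre-B controls Psme1 ranked 4 at 117 ± 4.43 RPKM (SD, n = 3) and Psmb8 ranked 9 at 99.7 ± 8.09 RPKM (SD, n = 3), and there Psmb1 was the highest at 151 ± 5.43 RPKM (SD, n = 3). The assembly chaperone gene Psmd9 had 10.4 to 12.1 RPKM as group means, and Psmb5 had 14.7 to 23.3 RPKM. Psma8, an alpha subunit of spermatogenic cells on chromosome 18, had 1 to 42 counts per library, or 0.0466 to 0.806 CPM. Psmb11 had 0 to 6 counts per library, or at most 0.173 CPM, where 3 counts correspond to 0.054 to 0.173 CPM. Psmc3ip was at 6.99 to 13.5 CPM.

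**Figure D1:**
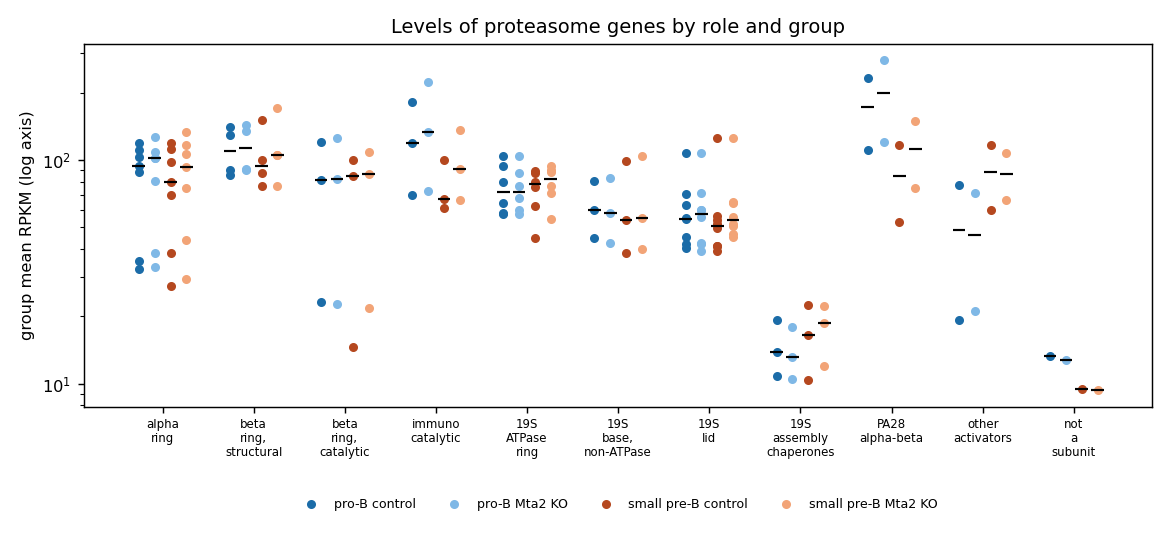
Group mean RPKM on a log axis for each gene (points) by role, with the median of the role (black line), in the 4 groups. The medians of the alpha ring, structural beta, ATPase and lid genes stay between 50.7 and 113.5 RPKM in all groups, whereas Psme1, Psme2, Psmb8 and Psmb9 are lower and Psme4 (upper small pre-B point of the other activators) is higher in small pre-B cells. Psma8 and Psmb11, below 1 RPKM, are not drawn.

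Among the catalytic genes, the immunoproteasome form was the more abundant in every library at 1 of the 3 positions. The ratio of Psmb8 to Psmb5 on the RPKM scale was 7.58 and 8.10 in the pro-B controls, 10.02 and 9.72 in the pro-B Mta2 KO libraries, 6.73, 6.57 and 7.18 in the small pre-B controls, and 5.69, 6.80 and 6.32 in the small pre-B Mta2 KO libraries. Psmb8 RNA was therefore the more abundant in all 10 libraries. The ratio of Psmb9 to Psmb6 was 0.955 and 1.02 in pro-B controls and 0.668, 0.708 and 0.457 in small pre-B controls, without overlap. It was 1.14 and 0.984 in pro-B Mta2 KO libraries and 0.776, 1.06 and 0.730 in small pre-B Mta2 KO libraries, which overlapped. The ratio of Psmb10 to Psmb7 stayed between 0.704 and 0.930 in all 10 libraries, with overlapping groups. The level of Psmb5 is uncertain, since 57.1% of the 50-base stretches of its longest coding transcript also occur in other annotated genes (mostly Gm3375). In addition, 12.5% of its exon bases overlap the microRNA gene Mir686. Psme2 shares 59.3% of such stretches with other genes, mostly Psme2b, and Psmb3 and Psma5 share 55.8% and 55.4%, so reads of these genes may have been divided or dropped in counting.

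Between the pro-B and small pre-B stages in control cells, the immunoproteasome genes Psmb8 and Psmb9 and the PA28 genes Psme1 and Psme2 fell to between 0.473 and 0.547 of their pro-B level, Psmb10 did not pass the test, and Psme4 rose 6.04-fold. Of the other genes, 5 of the 20S barrel or its activators (Psmb5, Psma7, Psmb2, Psma4 and Psme3) had called log2 fold changes between -0.67 and -0.38, 3 of the 19S particle rose (Psmd4, Psmc6 and Psmd6), and the rest did not pass. The question is how the proteasome genes differ between these stages of B cell development.

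Psmb8 was at 219 and 227 CPM in the pro-B controls and at 125, 130 and 111 CPM in the small pre-B controls. The groups did not overlap, and the log2 fold change was -0.87 (SE 0.10, adjusted p = 0.0001547, edgeR's quasi-likelihood test with Benjamini-Hochberg adjustment over all 14161 genes tested). Psmb9 was at 93.4 and 98.5 CPM against 52.2, 56.3 and 39.1 CPM, a log2 fold change of -0.96 (SE 0.16, edgeR adjusted p = 0.0008153). Every small pre-B library was again below both pro-B libraries. Psmb10, the immunoproteasome subunit that lies outside the MHC region, was at 86.4 and 91.8 CPM against 89.0, 75.6 and 91.9 CPM. Its groups overlapped, and its log2 fold change was -0.06 (SE 0.12, edgeR adjusted p = 0.7006), with an interval of 2 SE on either side from -0.30 to 0.19.

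Psme1, the PA28 alpha subunit, was at 215 and 241 CPM in the pro-B controls against 118, 115 and 110 CPM in the small pre-B controls, a log2 fold change of -0.996 (SE 0.11, edgeR adjusted p = 7.845e-05). Psme2, the PA28 beta subunit, was at 105 and 112 CPM against 58.5, 52.7 and 43.2 CPM, a log2 fold change of -1.08 (SE 0.15, edgeR adjusted p = 0.0002943). Both PA28 genes thus separated the groups fully, which is common with 2 against 3 libraries. Over all genes tested, 34.1% lay fully higher and 38.9% fully lower in small pre-B controls. Of the 43 proteasome genes 18.6% lay fully higher and 46.5% fully lower. Psme3, the PA28 gamma subunit of the nucleus, fell less, from 213 and 194 CPM to 164, 166 and 140 CPM (log2 fold change -0.38, SE 0.10, edgeR adjusted p = 0.01314).

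Psme4, whose product PA200 caps proteasomes in the nucleus and takes part in the degradation of acetylated histones, showed the opposite course. It was at 118 and 131 CPM in the pro-B controls and at 685, 877 and 691 CPM in the small pre-B controls, a log2 fold change of 2.59 (SE 0.22, edgeR adjusted p = 2.507e-05). The lowest small pre-B library lay far above the highest pro-B library. No 50-base stretch of the longest coding transcript of Psme4 occurs in another annotated gene. By level it moved from rank 38 of the 44 genes in pro-B controls (19.3 ± 1.38 RPKM, SD, n = 2) to rank 5 in small pre-B controls (117 ± 16.9 RPKM, SD, n = 3).

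The constitutive catalytic genes went different ways. Psmb5 fell from 20.6 and 19.9 CPM to 13.2, 14.1 and 10.99 CPM (log2 fold change -0.67, SE 0.14, edgeR adjusted p = 0.003533). Psmb6 was at 126 and 125 CPM against 101, 102 and 110 CPM, which did not overlap, but its log2 fold change of -0.26 did not pass (SE 0.12, edgeR adjusted p = 0.08188). Psmb7 was at 81.2 and 76.9 CPM against 83.5, 81.9 and 80.2 CPM, with overlapping groups and a log2 fold change of 0.05 (SE 0.10, edgeR adjusted p = 0.6843). Elsewhere in the 20S barrel, the alpha ring gene Psma7 fell by 0.57 on the log2 scale (SE 0.09, edgeR adjusted p = 0.0009096), from 105 and 104 CPM to 73.8, 69 and 69.2 CPM. Psma4, also of the alpha ring, fell from 106 and 100.5 CPM to 71.2, 76.4 and 82.9 CPM (log2 fold change -0.43, SE 0.12, edgeR adjusted p = 0.01338). Psmb2, a structural beta gene, fell from 122 and 116 CPM to 80.6, 77.8 and 96.5 CPM (log2 fold change -0.49, SE 0.13, edgeR adjusted p = 0.01232).

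Of the 43 tested genes, 4 rose and 9 fell at an adjusted p below 0.05 in this comparison. Over all genes tested the shares called were 26% higher and 29.4% lower, and the shares among the proteasome genes, 9.3% and 20.9%, lay under both. Their log2 fold changes were also small: the median absolute value was 0.23, against 0.73 over all genes, and 35 of 43 (81.4%) were below 0.5, against 37.8% of all genes. The signed median was -0.10, against -0.02 over all genes. By role, the test passed for 2 of 3 immunoproteasome catalytic genes (lower), 2 of 2 PA28 alpha-beta genes (lower), 2 of 7 alpha ring genes (lower), 1 of 4 structural beta genes (lower) and 1 of 3 constitutive catalytic genes (lower). In the 19S particle it passed for 1 of 6 ATPase genes, 1 of 3 non-ATPase base genes and 1 of 8 lid genes, and these 3 calls, Psmc6, Psmd4 and Psmd6, were all higher.

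Psmc6, an ATPase subunit, was at 91.4 and 90.5 CPM in pro-B controls against 107, 115 and 132 CPM (log2 fold change 0.38, SE 0.12, edgeR adjusted p = 0.02783). Psmd4, a ubiquitin receptor of the base, was at 99.8 and 101 CPM against 119, 123 and 131 CPM (log2 fold change 0.31, SE 0.10, edgeR adjusted p = 0.02411). Psmd6, a lid subunit, was at 53.4 and 51.1 CPM against 68.2, 59.9 and 65.3 CPM (log2 fold change 0.30, SE 0.12, edgeR adjusted p = 0.04989), just under the threshold. In all 3 the groups did not overlap. The lid gene Psmd7 had the lowest log2 fold change of the 19S genes, -0.68 (SE 0.27), but did not pass (edgeR adjusted p = 0.05609), at 104 and 98.2 CPM against 71.3, 81.1 and 36.4 CPM. Of the rises, Psme4's alone passed in the fit of the compared groups alone and without pro-B control 1 or 2, which gave 1 gene higher each time. The 9 falls became 6 without pro-B control 1. The falls of Psmb8, Psmb9, Psme1, Psme2, Psmb5 and Psma7 and the rise of Psme4 passed in all 17 alternatives tried for this comparison.

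**Figure D2:**
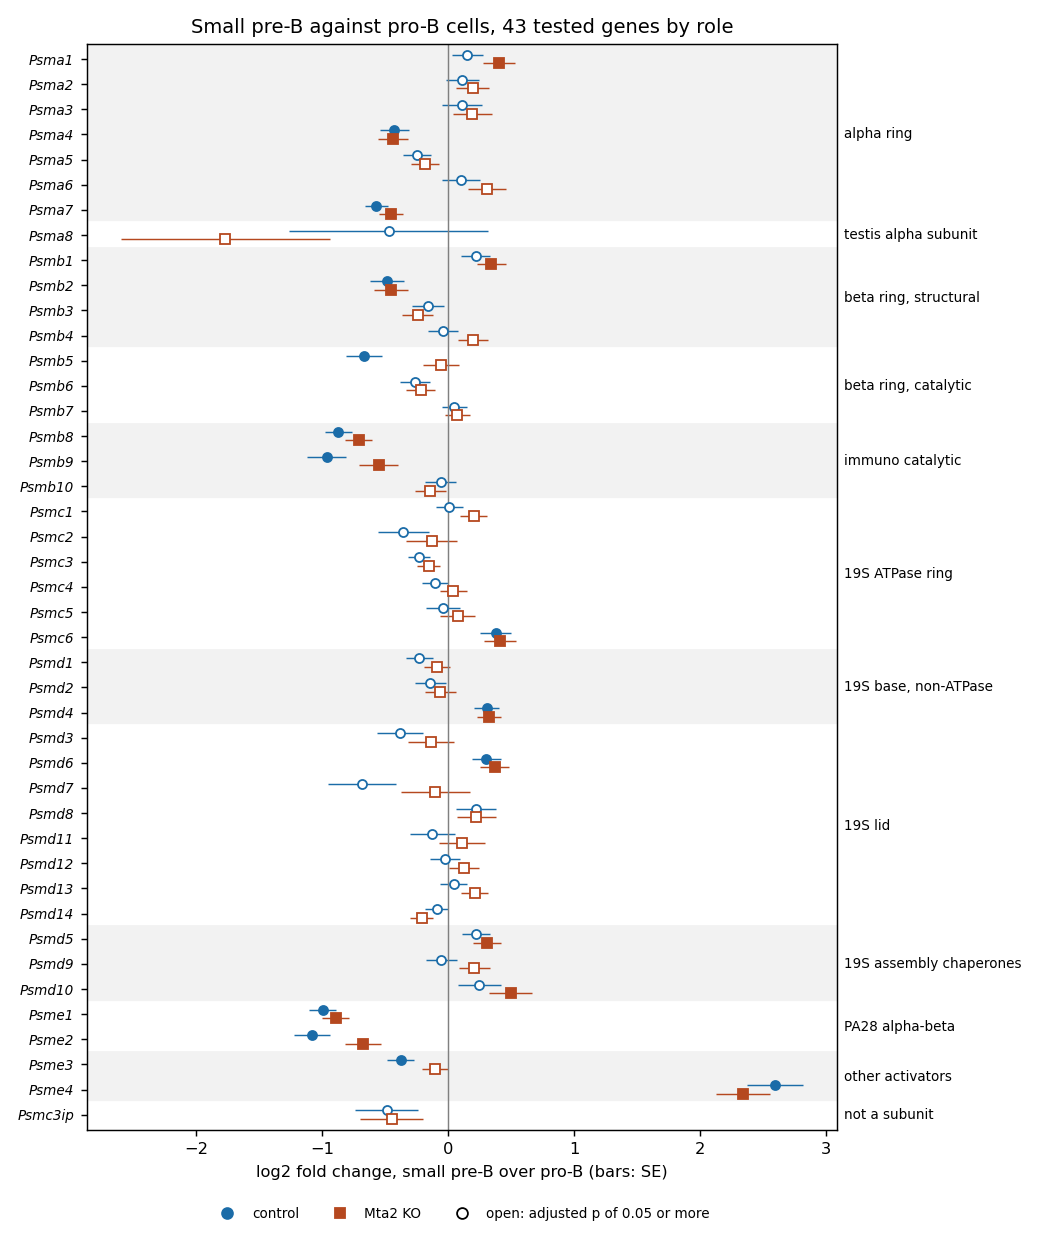
Log2 fold change of small pre-B over pro-B cells (x axis, bars show the SE) for the 43 tested genes grouped by role, in control (circles) and Mta2 KO cells (squares), with filled symbols at an adjusted p below 0.05. Psmb8, Psmb9, Psme1 and Psme2 lie to the left and Psme4 far to the right in both genotypes, while most of the barrel and the 19S particle lies within 0.5 of 0.

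In Mta2 KO cells the stage comparison gave falls of Psmb8, Psmb9, Psme1 and Psme2 and a rise of Psme4. Psmb8 was at 268 and 280 CPM in the pro-B Mta2 KO libraries and at 154, 173 and 175 CPM in the small pre-B Mta2 KO libraries, a log2 fold change of -0.71 (SE 0.10, edgeR adjusted p = 0.0005149). Psmb9 was at 112 and 104 CPM against 66.7, 81.6 and 72.4 CPM (log2 fold change -0.55, SE 0.16, edgeR adjusted p = 0.0159). Psmb10 was at 96.6 and 89.1 CPM against 75.3, 87.0 and 90.0 CPM, with overlapping groups (log2 fold change -0.14, SE 0.12, edgeR adjusted p = 0.3554). The first 2 of these genes separated the groups fully. Over all genes tested, 36.5% lay fully higher and 39.4% fully lower in this comparison, against 34.9% and 34.9% of the proteasome genes.

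Psme1 was at 262 and 283 CPM against 133, 151 and 156 CPM (log2 fold change -0.89, SE 0.11, edgeR adjusted p = 0.000143). Psme2 was at 113 and 121 CPM against 65.5, 71.4 and 83.4 CPM (log2 fold change -0.68, SE 0.15, edgeR adjusted p = 0.004262). Psme4 was at 140 and 134 CPM against 738, 831 and 512 CPM (log2 fold change 2.34, SE 0.22, edgeR adjusted p = 3.652e-05), again with no overlap. Psme3 did not pass here, at 189 and 185 CPM against 179, 167 and 175 CPM (log2 fold change -0.10, SE 0.11, edgeR adjusted p = 0.4346).

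Of the constitutive catalytic genes none passed in Mta2 KO cells. Psmb5 was at 19.01 and 20.5 CPM against 19.3, 18.1 and 19.7 CPM, with overlapping groups (log2 fold change -0.05, SE 0.14, edgeR adjusted p = 0.7725). Psmb6 had a log2 fold change of -0.22 (SE 0.12, edgeR adjusted p = 0.1468) and Psmb7 of 0.07 (SE 0.10, edgeR adjusted p = 0.5738). In all, 8 of 43 genes rose (18.6%) and 7 fell (16.3%), against 24% and 27.3% of all genes. The other rises were those of Psmd4, Psmc6, Psmd6, the alpha ring gene Psma1 (log2 fold change 0.40), the structural beta gene Psmb1 (0.34) and the assembly chaperones Psmd10 (0.50) and Psmd5 (0.31). Psma1 went from 98.8 and 104 CPM to 136, 115 and 151 CPM and Psmb1 from 135 and 145 CPM to 175, 158 and 199.5 CPM, without overlap. The other falls were those of Psma7 (-0.45), Psma4 (-0.44) and Psmb2 (-0.45). The 8 rises became 1 without pro-B Mta2 KO 1 or 2, 2 without small pre-B Mta2 KO 3, and 5 without pro-B control 1 or 2 or small pre-B Mta2 KO 1. The 7 falls became 4 without pro-B Mta2 KO 2 and 2 without both small pre-B Mta2 KO libraries with Xist RNA.

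The pro-B libraries held more RNA of markers of other blood cells, and this moved with the stage differences. All 9 myeloid and granulocyte markers, all 7 plasmacytoid dendritic markers, 5 of 6 dendritic markers, all 6 natural killer markers and all 7 T cell markers were called lower in small pre-B controls. Among the 20 genes of the interferon response list, 12 were called lower (60%) and 2 higher (10%) in small pre-B controls, against 29.4% and 26% of all genes, and their summed level went from 1637 to 1999 CPM in pro-B controls to 867 to 897 CPM. The 4 genes with the smallest p were Bst2 (412 and 484 CPM to 10.3, 11.9 and 5.71 CPM), which is also a plasmacytoid dendritic marker, Irf7 (133 and 165 CPM to 10.4, 10.1 and 5.57 CPM), the RNA sensor gene Ddx58, which rose by 1.91 on the log2 scale (SE 0.20), and Mx1, which fell by 3.68 (SE 0.45). The part of these other cells in the falls of Psmb8, Psmb9, Psme1 and Psme2 was not tested. In Mta2 KO cells the same markers called lower were 9 of 9, 7 of 7, 4 of 6, 4 of 6 and 3 of 7. Of 3 erythroid markers tested 1 was called lower in each genotype, and the 3 plasma cell markers, some of which B cells express, went different ways.

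The MHC class I presentation list, the other genes of peptide supply and loading, had 5 of 14 genes called lower and 2 higher in small pre-B controls, and the same counts in Mta2 KO cells. In controls the 4 with the smallest p were Calr (log2 fold change -1.07, SE 0.14), Tapbp (-0.74, SE 0.11) and Pdia3 (-1.55, SE 0.27), which load or fold class I molecules, and Lnpep, a peptide-trimming enzyme (1.46, SE 0.32). Tap1, the divergent neighbour of Psmb9, fell by 0.56 on the log2 scale (SE 0.18), from 211 and 261 CPM in pro-B controls to 160, 175 and 145 CPM in small pre-B controls. These shares, 35.7% lower and 14.3% higher, compare with 29.4% and 26% of all genes in controls and with 27.3% and 24% in Mta2 KO cells. Of 24 partner genes of the proteasome (assembly factors, shuttling receptors, deubiquitinases and regulators; Shfm1 and AI314180 are older symbols of Sem1 and Ecpas), 4 rose (16.7%) and 8 fell (33.3%) in controls, against 26% and 29.4% of all genes. Those with the smallest p were AI314180 (log2 fold change 1.03, SE 0.12), Zfand5 (1.145, SE 0.15) and Ubqln1 (0.70, SE 0.10), which rose, and the assembly chaperone gene Psmg1 (-1.01, SE 0.18), which fell. In Mta2 KO cells 4 partner genes rose (16.7%) and 5 fell (20.8%), against 24% and 27.3% of all genes. There AI314180 rose by 1.199, Ubqln1 by 0.65 and Zfand5 by 0.95, and Nfe2l1, the regulator named above, fell by 0.43 on the log2 scale (SE 0.09). The interferon list in Mta2 KO cells had 8 lower (40%) and 3 higher (15%), with the smallest p for Bst2 (-4.65), Irf7 (-3.17), Ddx58 (1.504) and Mx1 (-2.79). In Mta2 KO cells the class I genes with the smallest p were Calr (-1.15), Tapbp (-0.54), Pdia3 (-1.16) and Tpp2 (0.53), and the latter encodes a peptidase that acts after the proteasome.

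Loss of Mta2 in small pre-B cells went with higher Psmb8 and Psmb5 RNA, and with values of Psmb9, Psme1 and Psme2 that were higher in every Mta2 KO library than in every control but narrowly missed the threshold. Psmb8 rose 1.37-fold and Psmb5 1.49-fold. The comparison asks whether the NuRD subunit affects the proteasome genes in these cells.

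The control libraries had 125, 130 and 111 CPM of Psmb8 and the Mta2 KO libraries 154, 173 and 175 CPM, a log2 fold change of 0.46 (SE 0.10, edgeR adjusted p = 0.04248). Psmb5 was at 13.2, 14.1 and 10.99 CPM against 19.3, 18.1 and 19.7 CPM, a log2 fold change of 0.58 (SE 0.13, edgeR adjusted p = 0.04917). Both sets of libraries were fully separated, and the 3 Mta2 KO levels of Psmb5 were close to those of pro-B cells. The raw counts behind Psmb5 were 237, 350 and 387 in controls and 335, 459 and 422 in Mta2 KO libraries.

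Psmb9 was at 52.2, 56.3 and 39.1 CPM against 66.7, 81.6 and 72.4 CPM (log2 fold change 0.58, SE 0.14, edgeR adjusted p = 0.06036). Psme1 was at 118, 115 and 110 CPM against 133, 151 and 156 CPM (log2 fold change 0.36, SE 0.10, edgeR adjusted p = 0.07382). Psme2 was at 58.5, 52.7 and 43.2 CPM against 65.5, 71.4 and 83.4 CPM (log2 fold change 0.52, SE 0.13, edgeR adjusted p = 0.06892). None of these 3 passed. In each, every Mta2 KO library was above every control, as in 13.3% of all genes tested, with 11.7% in the reverse order. Psmb10 was at 89.0, 75.6 and 91.9 CPM against 75.3, 87.0 and 90.0 CPM, with a log2 fold change of -0.02 (SE 0.11, edgeR adjusted p = 0.9193) and an interval of 2 SE from -0.24 to 0.20. Psmb6 (0.11, SE 0.11, edgeR adjusted p = 0.5533) and Psmb7 (0.04, SE 0.09, edgeR adjusted p = 0.8062) did not pass either.

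**Figure D3:**
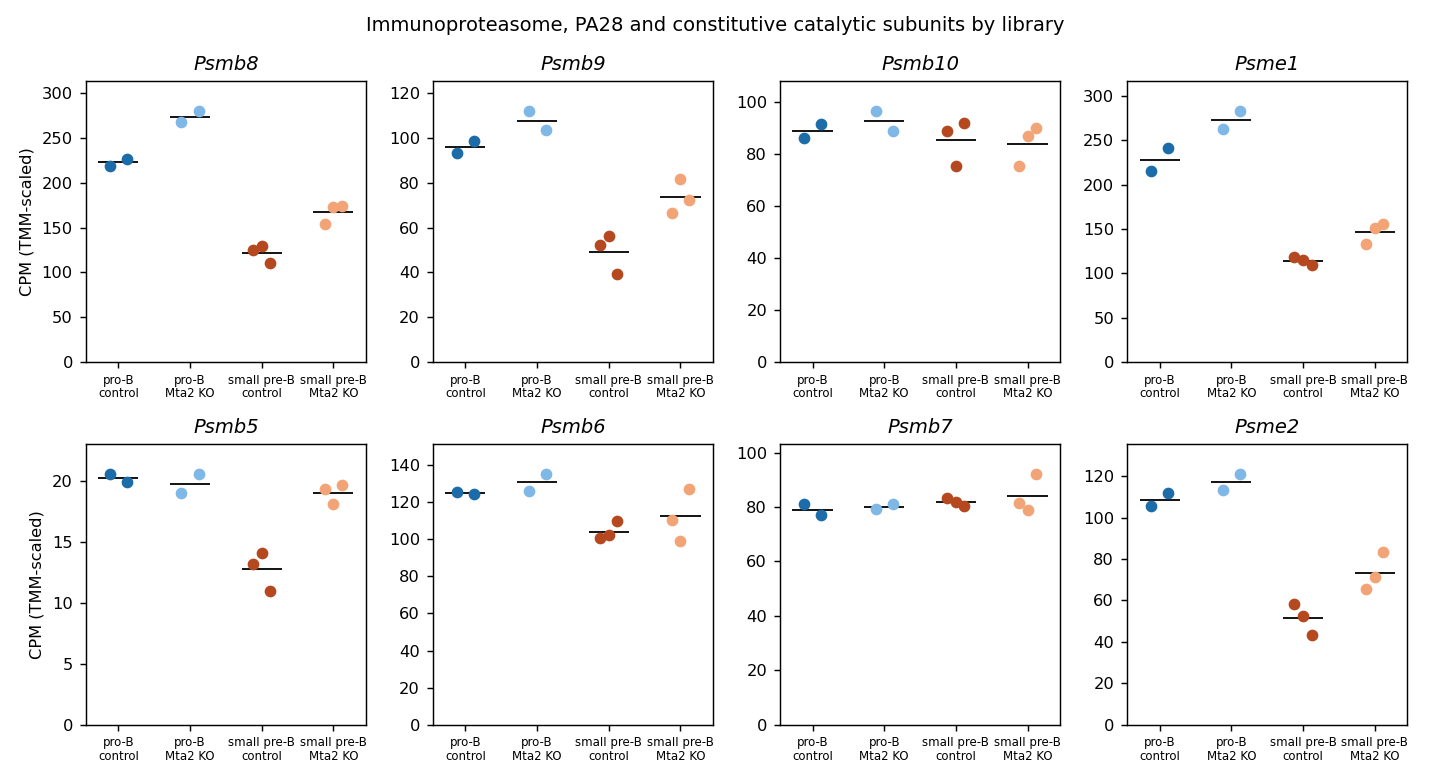
CPM of each library (points, linear axes from 0) with group means (lines) for the immunoproteasome genes Psmb8, Psmb9 and Psmb10, the PA28 genes Psme1 and Psme2 and the constitutive catalytic genes Psmb5, Psmb6 and Psmb7. In Psmb8, Psmb9, Psme1 and Psme2 the small pre-B libraries lie below all pro-B libraries and the small pre-B Mta2 KO libraries lie above the small pre-B controls, whereas Psmb10 and Psmb7 overlap between groups and Psmb5 is lowest in the small pre-B controls.

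Of the 43 tested genes 2 rose (4.65%) and 0 fell, against 1.89% higher and 1.14% lower over all genes. A count of 2 is too small to set the family apart from that background. At an unadjusted p below 0.05, 7 of the 43 differed, against 3495 of all 14161 genes. DESeq2 and limma-voom also called 0 lower. The fold changes leaned one way: 38 of 43 were positive, with a median of 0.12 against 0.01 over all genes, and in 11 of 43 (25.6%) every Mta2 KO library was above every control, against 13.3% of all genes, with 0 of 43 in the reverse order, against 11.7%. All 7 alpha ring, 4 structural beta, 6 ATPase, 3 non-ATPase base and 8 lid genes had positive log2 fold changes, of at most 0.50, and none passed. With RLE scaling 35 of 43 were positive, since Psmb3, Psmd8 and Psmd14, all within 0.02 of 0, changed sign. The 0.50 was that of the lid gene Psmd7 (edgeR adjusted p = 0.2408), at 71.3, 81.1 and 36.4 CPM in controls against 83.9, 83.8 and 99.3 CPM, where small pre-B control 3 was far below the rest. The size of the lean depended on single libraries. Small pre-B Mta2 KO 3 was the highest of its group for 34 of the 43, and without it the median was 0.0798. The median was 0.178 without small pre-B Mta2 KO 2, 0.16 without small pre-B control 2, 0.102 without control 3, and 0.256 without both libraries with Xist RNA, which leaves Mta2 KO 3 alone.

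The 2 calls were close to the threshold. The DESeq2 Wald test called 5 genes, Psmb8, Psmb9, Psmb5, Psme1 and Psme2, while the fit of these groups alone and the fit with the title number as a replicate block each called 0. Without small pre-B control 2 there were 3 calls, Psmb8, Psmb5 and Psmb9, without small pre-B control 3 there was 1, and without any other single library there were 0. Psmb8's adjusted p ranged from 0.0003847 to 0.19 over 19 alternatives, with a log2 fold change of 0.39 to 0.52, and Psmb5's from 0.0009264 to 0.2123, with 0.48 to 0.65. Without both small pre-B Mta2 KO libraries with Xist RNA, Psmb8 differed by 0.52 and Psmb5 by 0.63 on the log2 scale, and neither passed with 1 library left.

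Stage markers, interferon-response genes and T cell markers moved with these values. Of 5 pro-B markers 4 had positive log2 fold changes in small pre-B Mta2 KO cells (median 1.27), with 3 at an unadjusted p below 0.05 and 1 called higher. That one, the receptor gene Kit, was at 14.9, 10.9 and 3.64 CPM in the control and 81.9, 50.9 and 36.3 CPM in the Mta2 KO libraries. These 5 markers set the stages apart poorly here: from pro-B to small pre-B controls 1 was called lower and 1, Il7r, higher. Mean Igll1 and Vpreb1 in small pre-B Mta2 KO cells, 312 and 176 CPM, were above the 229 and 85.0 CPM of pro-B controls. Of 5 small pre-B markers 4 had negative log2 fold changes (median -0.40), with 3 at an unadjusted p below 0.05 and 1 called lower. That one, the receptor gene Il2ra, was at 437, 263 and 369 CPM against 144, 120.4 and 152 CPM. Psmb8, Psmb5, Psmb9, Psme1 and Psme2 were all higher in pro-B than in small pre-B controls, and the part of a shift between stages in their Mta2 KO values was not tested. Of the 20 interferon-response genes 19 had positive log2 fold changes in small pre-B Mta2 KO cells, against 7159 of all 14161 genes. At an unadjusted p below 0.05, 12 of the 20 differed, against 3495 of all genes. In 60% every Mta2 KO library was above every control, against 13.3% of all genes. Of the 20, 1 passed (5%, against 1.89% of all genes called higher), Irf7, a regulator of interferon genes. Irf7 was at 10.4, 10.1 and 5.57 CPM in controls against 15.8, 21.97 and 18.7 CPM (log2 fold change 1.13, SE 0.25, edgeR adjusted p = 0.0482). Rtp4 (1.75, edgeR adjusted p = 0.05074), Bst2 (0.98, edgeR adjusted p = 0.05867) and Gbp2 (0.58, edgeR adjusted p = 0.07382) followed. The list summed to 867 to 897 CPM in controls and 952 to 1278 CPM in Mta2 KO libraries. Of the 14 class I presentation genes 10 were positive and 0 passed (7 at an unadjusted p below 0.05, against 3495 of all 14161 genes). H2-K1, a class I heavy chain, was at 1374, 1308 and 1207 CPM against 1582, 2298 and 1963 CPM (log2 fold change 0.59, SE 0.16, edgeR adjusted p = 0.07587), followed by Tap1 (0.49, edgeR adjusted p = 0.1196), H2-D1 (0.33, edgeR adjusted p = 0.1603) and Tapbp (0.25, edgeR adjusted p = 0.1616). Of the 24 partner genes 0 passed (3 at an unadjusted p below 0.05), with the smallest p for Ubqln4 (0.48, edgeR adjusted p = 0.109).

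The 7 T cell markers found summed to 15.2 to 57.2 CPM in small pre-B controls and 77.5 to 137.8 CPM in Mta2 KO libraries. Of the 7, 3 were called higher. Lck was the largest part of each sum, at 31.3, 51.0 and 12.7 CPM against 59.4, 87.3 and 69.5 CPM. Cd4 had a mean of 1.67 CPM in controls and 1.66 CPM in Mta2 KO libraries. The myeloid sum was 103.5 to 263.4 CPM against 196.3 to 376.1 CPM and the plasmacytoid dendritic sum 536.5 to 592.6 CPM against 613.8 to 708.9 CPM, with 0 of 9 and 0 of 7 called higher. Of the other lists, 1 of 3 plasma cell markers was called higher, 1 of 6 dendritic markers lower, and 0 of 8 B lineage, 0 of 6 natural killer and 0 of 3 erythroid markers in either direction. The part of any such cells, of sex and of the interferon-response genes in the higher Psmb8 was not tested.

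**Figure D4:**
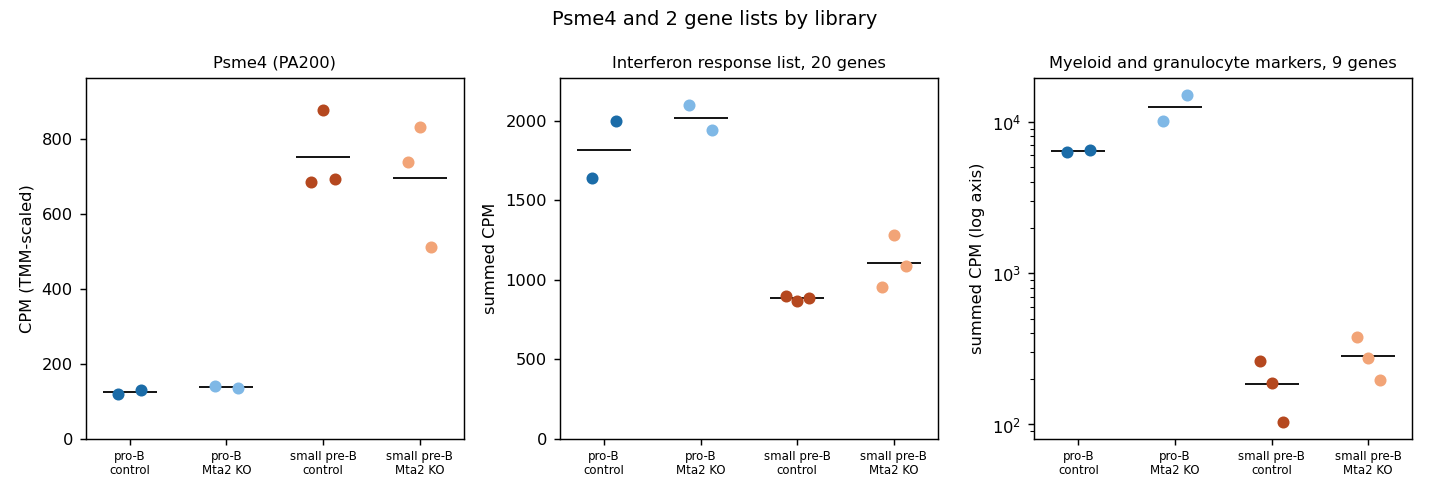
Psme4 in CPM (left), the summed CPM of the 20 interferon-response genes (middle) and the summed CPM of 9 myeloid and granulocyte markers (right, log axis), with points for libraries and lines for group means. Psme4 is high in the 6 small pre-B libraries, and both list sums are higher in pro-B libraries, where the myeloid sum is 10150 to 15060 CPM in Mta2 KO against 6299 to 6487 CPM in controls.

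In pro-B cells no proteasome gene was called between Mta2 KO and control. Psmb8 had the smallest p, at 219 and 227 CPM in controls against 268 and 280 CPM in Mta2 KO libraries, a log2 fold change of 0.30 (SE 0.12, edgeR adjusted p = 0.6626). Psme1 was at 215 and 241 CPM against 262 and 283 CPM (log2 fold change 0.26, SE 0.12, edgeR adjusted p = 0.7859). Psmb8, Psme1, Psmb9 and Psme2 lay fully higher in the Mta2 KO libraries. Of the 43 tested proteasome genes 32.6% lay fully higher and 18.6% fully lower, against 27.4% and 28.1% of all genes. Psmb9 (0.17, SE 0.17), Psme2 (0.11, SE 0.16) and Psmb10 (0.06, SE 0.13) had an edgeR adjusted p of 1, as did Psmb5 (-0.04, SE 0.16), Psmb6 (0.06, SE 0.13) and Psmb7 (0.02, SE 0.11). None of these differences passed the test.

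The count was 0 higher and 0 lower of 43, against 0.0353% and 0% of all genes, where 5 of 14161 genes passed. At an unadjusted p below 0.05, 1 of 43 differed, against 913 of all 14161 genes. DESeq2 and limma-voom also called 0. The median log2 fold change was 0.02, against -0.01 over all genes, and all 43 were below 0.5 in absolute value. Psme4 was at 118 and 131 CPM against 140 and 134 CPM (log2 fold change 0.14, SE 0.22), and its interval of 2 SE ran from -0.30 to 0.57. The myeloid markers were higher in both pro-B Mta2 KO libraries for all 9 genes, at a sum of 10150 and 15060 CPM against 6299 and 6487 CPM. All 8 B lineage markers had negative log2 fold changes (median -0.35), with 5 fully lower. Of 7 T cell markers 5 were fully higher, and of 7 plasmacytoid dendritic markers 3 were fully higher and 2 fully lower. Over all genes 27.4% were fully higher and 28.1% fully lower, and 0 of these markers were called. The part of these cells in the values of Psmb8 and Psme1 was not tested. The related lists had 0 calls (0 of 24 partner, 0 of 14 class I and 0 of 20 interferon genes, each with 0 at an unadjusted p below 0.05). Shfm1, a small 19S subunit (0.33), Calr (0.24) and Gbp2 (-0.36) had the smallest p of their lists.

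**Figure D5:**
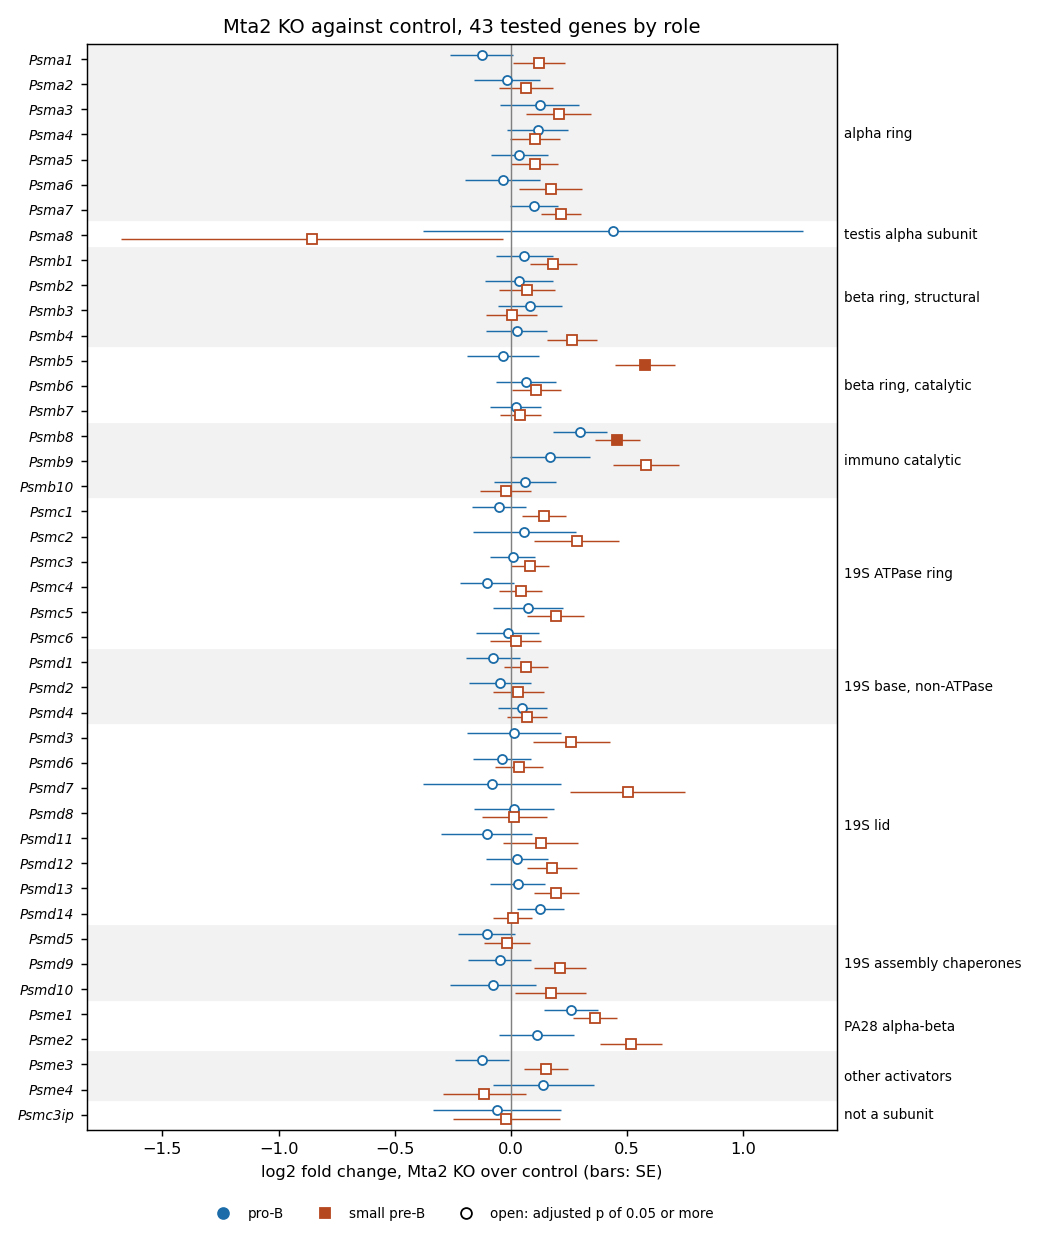
Log2 fold change of Mta2 KO over control (x axis, bars show the SE) for the 43 tested genes by role, in pro-B (circles) and small pre-B cells (squares), with filled symbols at an adjusted p below 0.05. The 2 filled symbols are Psmb5 and Psmb8 in small pre-B cells, and all pro-B symbols are open and near 0, Psma8 with 1 to 42 counts per library apart.

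Whether the Mta2 KO difference itself differed between the cell types was tested as a difference of the effects, and it was called for 0 of 43 genes in either direction, against 0% and 0% of all genes. At an unadjusted p below 0.05, 1 of 43 differed, against 907 of all 14161 genes. DESeq2 and limma-voom called 0. Psmb5 had the smallest p, with an effect larger by 0.61 on the log2 scale in small pre-B cells (SE 0.20, edgeR adjusted p = 0.6888). For Psmb8 the effects differed by 0.16 (SE 0.15, edgeR adjusted p = 0.8267), with an interval of 2 SE from -0.14 to 0.46. For Psmb9 and Psme2 they differed by 0.41 (SE 0.22) and 0.41 (SE 0.21), each with an edgeR adjusted p of 0.7739. The rise of Psmb8 and Psmb5 in small pre-B cells is therefore not shown to be particular to that stage.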

How the data were processed

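Gene counts of 10 RNA-seq libraries were analysed. The deposited files hold raw counts per gene, made by the authors with featureCounts 1.4.3-p1 over exons of an mm10 annotation with no strand option, per the file headers. CASAVA 1.82, STAR and the build mm9 are named in the submitters' processing notes. The kit in the labels keeps the strand, so counts of overlapping genes are less certain. Library totals were 17805507 to 52127004.

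Counts were tested with edgeR 4.0.16 (R 4.3.3): filterByExpr by group (minimum count 10, minimum total 15) left 14161 of 23420 genes, libraries were scaled by TMM, and 1 robust quasi-likelihood model with a mean per group was fitted to all 10 libraries, with F-tests, Benjamini-Hochberg adjustment over all tested genes and a threshold of 0.05. The fit was checked on simulated counts only for the sign of planted changes. These were larger than the called Mta2 KO differences of the proteasome genes, so calls near the threshold were not checked. Levels are CPM, or RPKM where genes are compared. Sequences came from RefSeq windows (GRCm38.p6), and stretches of 50 bases of each gene's longest coding transcript were matched to GENCODE M21 transcripts. Alternatives were RLE and upper-quartile scaling, DESeq2 1.42.0, limma-voom (limma 3.58.1), other count filters, the compared groups alone, a replicate block and each library left out.

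The members and lists were chosen with earlier results of these data known. The genes named are the 5 set apart and Psmb5, Psmb6 and Psmb7 in the comparisons between groups, up to 6 called members per direction with the smallest p, Psma8, Psmb11, Psmc3ip, Psme3 and Psme4 by levels, and up to 4 genes of each related list with the smallest p. Names outside the rule (Kit and Il2ra, the called stage markers, Tap1 in the stage comparison, the range limits Psma5 and Psmb1, Psmd7, Psmd9, Psmb3) were added after their values were seen. Il7r, Igll1, Vpreb1, Lck and Cd4 were named likewise. Samples of pre-B cells and of OcaB KO or double KO mice, named in the design text, were not analysed here. For small pre-B control 3 the number in the file header (919) differs from that in its title (931).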

Additional observations from a re-analysis of the deposited data

How the results depend on the processing

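The number of proteasome genes higher in small pre-B Mta2 KO cells (2) became 1 with upper-quartile scaling, with limma-voom and without a count filter, 5 with the DESeq2 Wald test, 0 in the fit of the compared groups alone and 0 without both Mta2 KO libraries with Xist RNA, an alternative chosen after seeing the data. Leaving out each library gave 0 to 3. The number higher in small pre-B controls (4) became 2 without a count filter and 1 in the fit of the compared groups alone, and was 1 to 4 with a library left out. In Mta2 KO cells the number higher between stages (8) became 5 with RLE scaling and without a count filter, and was 1 to 9 with a library left out. The number lower (7) was 4 to 8 with a library left out, and 2 without both libraries with Xist RNA. The number lower in controls (9) was 6 to 13. The cause was not tested, beyond the fewer libraries of these fits.

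The title numbers used as a replicate block gave 0 genes higher in small pre-B Mta2 KO cells, and 0 in pro-B cells as before. Same-numbered small pre-B libraries had correlations of 0.102, 0.155 and 0.045 of their deviations, and every library correlated best with its own number, a hint from the data and not the design. The pro-B pairs had 0.015. Most comparisons of single genes kept direction and side of the threshold (716 of 805 values), 73 lost and 8 gained the call. The 8 reversals were of values near 0. With a library left out, log2 fold changes ran from -0.0193 (without pro-B control 2) to 0.0586 for Psmb7 and from -0.0923 to 0.02 (without pro-B Mta2 KO 1) for Psmb5 in pro-B Mta2 KO against control. In small pre-B Mta2 KO against control they ran from -0.0299 (without Mta2 KO 3) to 0.0859 for Psmb7 and from -0.1072 to 0.0507 for Psmb10, which was positive without control 1, control 3 or Mta2 KO 1, and 0.0801 without both libraries with Xist RNA. For Psmb10 between stages in controls they ran from -0.1119 to 0.0311 (without small pre-B control 2). No scaling moved the median of all genes by over 0.1. Depth limits Psma8 and Psmb11, with at most 42 and 6 counts. A group left with 1 library took its spread from the other groups.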
